A study of Mus musculus with 24 samples.

Results

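The immediate early genes described here were Fos, Fosb, Junb, Egr1, Arc, Npas4, Nr4a1, Ier2 and Dusp1, 9 genes chosen by name among the 55418 genes of a count table from mouse lumbar spinal cord. All 9 were found by symbol, and all 9 were among the 25372 genes that passed the filter on low counts. RNA was sequenced from the L4 to L6 cord of 24 C57BL/6J mice, aged 8 to 10 weeks when the experiment began, with 3 mice in each of 8 groups. The groups were knockout males and females given paclitaxel, knockout males and females given vehicle, wild-type males and females given paclitaxel, and wild-type males and females given vehicle. Knockout mice (KO) lacked Chrna7, the gene of the alpha7 nicotinic acetylcholine receptor subunit, in myeloid cells, and wild-type mice (WT) kept it. The sources used here do not name the Cre driver of the deletion. Paclitaxel, a microtubule-stabilising cancer drug that can cause painful neuropathy, was injected 4 times on alternate days at 1 mg per kg, and RNA was taken 7 days after the first injection; vehicle was the mixture of Kolliphor, ethanol and water that carried the drug. The design sets drug against vehicle, deletion against its absence, and the drug response of the deleted mice against that of the others, in both sexes.

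Immediate early genes are transcribed within minutes of a stimulus, without new protein synthesis, because kinases of the MAPK, calcium and cAMP pathways act on factors that already sit at their promoters. In the dorsal horn, Fos protein and mRNA have long been used as markers of neurons that fired after a noxious stimulus. Their transcripts are short-lived, so their level in a tissue follows recent stimuli, which can be neuronal activity or handling. Of the 9 genes, Fos, Fosb and Junb encode subunits of the AP-1 transcription factor, Egr1 a zinc finger factor, Nr4a1 an orphan nuclear receptor and Npas4 a factor induced by neuronal calcium entry. Arc encodes a synaptic protein that promotes the internalisation of AMPA receptors, Ier2 a nuclear protein of the rapid growth factor response, and Dusp1 a phosphatase that switches off MAP kinases.

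The 250 bases before the RefSeq gene start are shown for 4 genes of the 6 that matched the RefSeq promoter table (build GRCm38.p6): Fos, Nr4a1 and Dusp1, which moved together over the cords, and Npas4, which passed in no pair with another early gene. For Nr4a1, Dusp1 and Npas4 the RefSeq start lies inside the span that the count table lists. Each is written 5' to 3' on the strand of its gene, and capitals mark TGACG on either strand, the core of the cAMP response element. The windows are chr12:85473640-85473889 (plus strand) for Fos, chr15:101266596-101266845 (plus strand) for Nr4a1, chr17:26508473-26508722 (minus strand) for Dusp1 and chr19:4989972-4990221 (minus strand) for Npas4.
Fos: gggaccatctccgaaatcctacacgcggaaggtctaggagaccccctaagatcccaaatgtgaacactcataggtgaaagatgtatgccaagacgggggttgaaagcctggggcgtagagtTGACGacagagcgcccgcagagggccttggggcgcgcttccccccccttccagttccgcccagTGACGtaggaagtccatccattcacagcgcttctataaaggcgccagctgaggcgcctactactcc
Nr4a1: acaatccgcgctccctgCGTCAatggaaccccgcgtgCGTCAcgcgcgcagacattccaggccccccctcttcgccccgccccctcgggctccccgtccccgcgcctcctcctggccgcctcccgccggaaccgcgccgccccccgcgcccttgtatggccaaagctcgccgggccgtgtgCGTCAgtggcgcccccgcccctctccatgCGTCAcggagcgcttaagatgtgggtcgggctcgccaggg
Dusp1: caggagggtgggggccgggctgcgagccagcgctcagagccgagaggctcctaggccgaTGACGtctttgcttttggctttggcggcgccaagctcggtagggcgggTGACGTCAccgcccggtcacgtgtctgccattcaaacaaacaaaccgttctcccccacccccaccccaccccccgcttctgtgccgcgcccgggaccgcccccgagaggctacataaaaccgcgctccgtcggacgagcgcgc
Npas4: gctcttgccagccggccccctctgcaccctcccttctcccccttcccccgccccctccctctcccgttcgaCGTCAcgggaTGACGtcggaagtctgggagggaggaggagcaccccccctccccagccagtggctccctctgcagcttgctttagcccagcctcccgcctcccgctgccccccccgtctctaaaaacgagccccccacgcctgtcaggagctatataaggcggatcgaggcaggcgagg
The core TGACG was found 2 times before Fos, 4 times before Nr4a1, 3 times before Dusp1 and 2 times before Npas4. It was also found before Fosb and Junb, so that all 6 matched genes held it, against 17.8% of the 32851 promoters in the table; it was added to the search after the sequences had been read. The full palindrome TGACGTCA, which contains the core on both strands, was found before Dusp1, 143 bases from the start, and in 1.55% of all promoters. The EGR site GCGNGGGCG was found before Fosb and Nr4a1, 50 and 60 bases from the start, and in 4.70% of all promoters. The CArG box of serum response factor was found in none of the 6 windows and in 1.47% of all promoters. Bases farther than 250 from the start were not searched, and Egr1, Arc and Ier2 had no match in the promoter table. The search therefore does not show that these genes lack the site. These are matches of letters in 1 window on both strands, not measured binding.

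Libraries held 88812295 to 112158154 counts, with a median of 94343662. Levels below are CPM, the share of a library's counts scaled to a common total. Chrna7 had a median of 13.1 CPM in 12 KO cords and 14.2 CPM in 11 WT cords; neurons transcribe it too, so these levels do not check the label. Lyz2, a lysozyme gene of myeloid cells, had a lowest, median and highest level of 14.9, 17.5 and 32.5 CPM in KO cords, against 28.7, 39.2 and 60.3 CPM in WT cords. Samples of a group were taken as separate mice, as the labels describe them.

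The library labelled WT female paclitaxel replicate 3 had the profile of a sensory ganglion and was kept out of the tests and group values below, leaving 23 cords. Its summed level of dorsal root ganglion neuron markers (13 listed, 12 measured) was 7739 CPM, against 466.5 to 695 CPM in the 23 cords, and all 12 markers lay above the median cord. None of its 10 astrocyte, 10 oligodendrocyte or 11 microglia markers did. All 10 of its skeletal muscle markers lay above the median cord too, with a sum of 676 CPM, against 95.6 to 160 CPM in the cords. Of its 9 meningeal and fibroblast markers 7 did, with a sum of 965 CPM, against 182 to 326 CPM. Levels in this library are therefore not those of ganglion alone. In the 23 cords the summed neuron markers lay between 10316 and 12215 CPM and the summed astrocyte markers between 7887 and 8835 CPM. Scn10a, which encodes a nociceptor sodium channel, was at 0.728 CPM in KO male vehicle replicate 2, the cord with the highest Fos level, and at most 0.187 CPM in the other cords. Without that cord the log2 fold change of Fos for KO over WT was 0.32, against 0.35 with it.

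All 9 early genes were detected in every cord, at levels that differed several fold per kilobase of exon. The table lists the genes at chromosome 12 (Fos, bases 85473890 to 85477273), 7 (Fosb, 19302696 to 19310051), 8 (Junb, 84974484 to 84978718), 18 (Egr1, 34859823 to 34864984), 15 (Nr4a1, 101254269 to 101274795), 19 (Npas4, 4984355 to 4990316), 15 (Arc, 74669083 to 74672570), 8 (Ier2, 84661331 to 84662852) and 17 (Dusp1, 26505590 to 26562128) of GRCm38. Fosb, the least abundant, had 136 to 266 counts per cord, and Arc, the most abundant, had 1893 to 2833. Junb shares 173 exon bases with Prdx2 on the opposite strand and Dusp1 shares 11 with Ergic1, and counting ignored strand, so reads there cannot be told apart. Arc was highest at 8.04 ± 0.892 CPM per kb (SD, n = 23), followed by Fos at 4.79 ± 1.48, Egr1 at 4.71 ± 1.19, Dusp1 at 4.06 ± 0.648, Nr4a1 at 3.29 ± 0.709, Junb at 2.95 ± 0.854 and Ier2 at 2.32 ± 0.707 CPM per kb. Npas4 stood at 1.30 ± 0.188 CPM per kb and Fosb was lowest at 0.340 ± 0.0608 CPM per kb. Arc lay above Fos in 22 of 23 cords, and Npas4 above Fosb in 23 of 23. Fos lay above Egr1 in 11 of 23 cords, so the order of these neighbours was not fixed, and Egr1 lay above Dusp1 in 16 and Nr4a1 above Junb in 17. In bulk tissue, a lower level from fewer cells of a type and one from less RNA per cell cannot be told apart.

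The genes differed in how much they varied between mice of 1 group. Within the 8 groups, Fos had an SD of 0.35 on the log2 scale, and 1.99% of the 15870 genes with a mean of at least 1 CPM had a larger one. Ier2 (SD 0.34), Junb (0.33), Egr1 (0.29) and Nr4a1 (0.27) were also variable, with 2.38%, 2.70%, 4.12% and 5.97% of genes above them. Fosb had an SD of 0.24, with 9.26% of genes above it. Dusp1 (0.20), Arc (0.16) and Npas4 (0.15) were steadier, with 15.7%, 23.8% and 25.4% of genes above them. This ranking does not take the level of a gene into account. By edgeR, the coefficient of biological variation of Fosb was 0.158, against a trend of 0.164 at its level. For Npas4 it was 0.111 against 0.124. The other members lay above the trend, with Fos at 0.234 against 0.0963. Over all 23 cords the highest level was 3.61 times the lowest for Junb, 3.35 times for Fos, 3.28 times for Ier2 and 3.02 times for Egr1, but 1.51 times for Arc and 1.57 times for Dusp1.

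**Figure D1:**
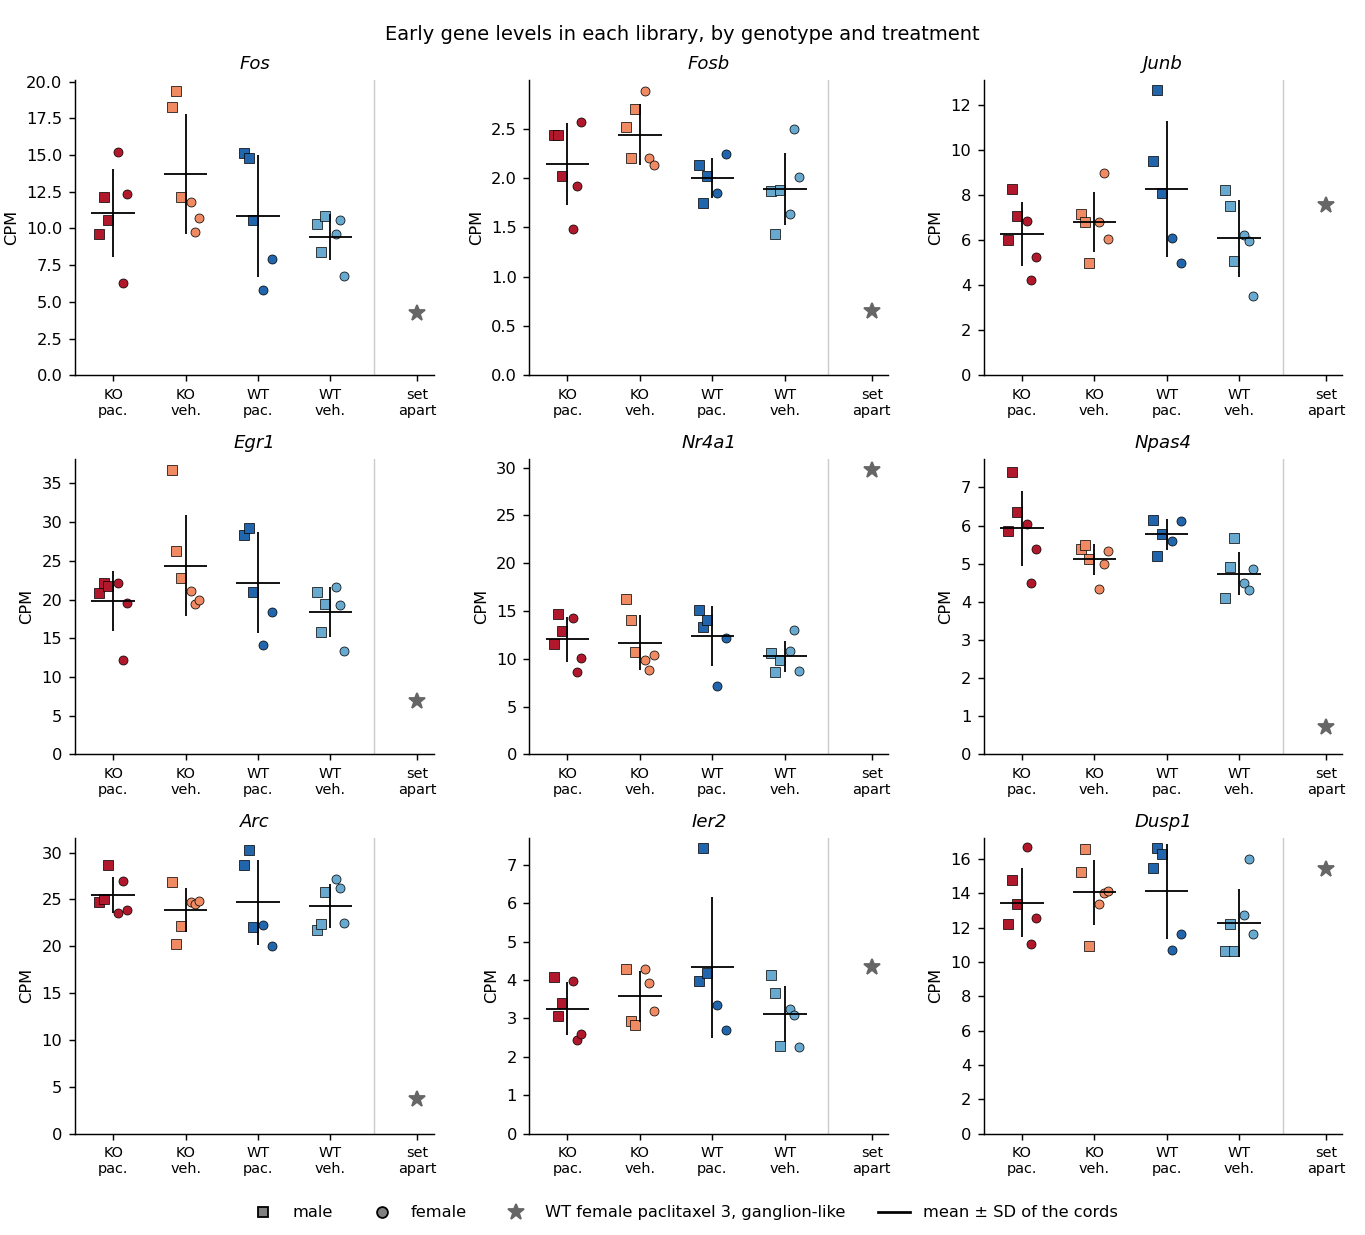
Level in CPM (y axis) of the 9 early genes in each library, with knockout paclitaxel (KO pac.), knockout vehicle (KO veh.), wild-type paclitaxel and wild-type vehicle cords from left to right; squares are males, circles females, horizontal lines with bars the mean ± SD of 5 or 6 cords, and the star the ganglion-like library. The 4 groups of cords overlap in all 9 genes, and the star lies below all cords for Fos, Fosb, Egr1, Npas4 and Arc and above them for Nr4a1.

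No early gene passed the test of paclitaxel against vehicle. None of the 9 was called over all animals (1 at an unadjusted p under 0.05, beside 10.2% of all genes, and 0 by limma voom), where 0.0197% of tested genes were (5 of 25372; edgeR adjusted p under 0.05), and the median log2 fold change of the 9 was 0.03, against 0.01 over all tested genes. Npas4 stood nearest to a call. It had a lowest, median and highest level of 4.49, 5.86 and 7.42 CPM in 11 paclitaxel cords, against 4.10, 4.96 and 5.69 CPM in 12 vehicle cords. Of the paclitaxel cords, 7 lay above every vehicle cord and 10 above the vehicle median, so the groups overlapped but were shifted. The log2 fold change of Npas4 was 0.24 (SE 0.07, 95% interval 0.11 to 0.38), with an unadjusted p of 0.000786 and an edgeR adjusted p of 0.184. It was 0.28 (SE 0.09) in WT cords and 0.21 (SE 0.09) in KO cords, with edgeR adjusted p of 0.528 and 0.367. DESeq2 called this gene over all animals (adjusted p = 0.0327, log2 fold change 0.24) among 0.623% of tested genes, while edgeR with each cord left out in turn gave adjusted p of 0.0969 to 0.430.

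The AP-1 genes showed no shared direction with the drug. Fos had a lowest, median and highest level of 5.79, 10.6 and 15.2 CPM in 11 paclitaxel cords, against 6.73, 10.6 and 19.4 CPM in 12 vehicle cords. The groups overlapped, with 2 vehicle cords above every paclitaxel cord and 2 paclitaxel cords below every vehicle cord, and the log2 fold change was -0.13 (SE 0.14, 95% interval -0.43 to 0.18). Fosb and Junb gave log2 fold changes of -0.05 (interval -0.25 to 0.15) and 0.09 (interval -0.19 to 0.37). Egr1 gave -0.06 (interval -0.32 to 0.19), Nr4a1 0.12 (interval -0.11 to 0.35), Arc 0.03 (interval -0.10 to 0.16), Ier2 0.11 (interval -0.18 to 0.39) and Dusp1 0.03 (interval -0.13 to 0.19). These intervals bound the differences at these numbers of mice and do not show that the levels were equal.

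By genotype, 8 of the 9 genes had a positive paclitaxel fold change in WT cords and 3 of 9 in KO cords, beside 51.9% and 50.6% of all tested genes. Again none was called. In WT cords 0% of tested genes were called (2021 at an unadjusted p under 0.05, 0 by limma voom and 4 by DESeq2), and in KO cords 0.0236%. Of the members, Npas4 alone had an unadjusted p under 0.05 in either genotype, and limma voom and DESeq2 called none. The difference between the genotypes in their response was tested as the genotype by treatment interaction, which is the log2 fold change of KO cords minus that of WT cords. It was negative for 8 of 9 genes and positive for 1, and it was positive for 48.3% of all tested genes. The median was -0.27, against -0.01 over all tested genes. No member was called where 0% of genes were (0 members and 2134 genes at an unadjusted p under 0.05, and 0 by limma voom and DESeq2). The largest values were -0.47 for Ier2 (SE 0.27), -0.43 for Egr1 (SE 0.24) and -0.42 for Junb (SE 0.27), with edgeR adjusted p of 0.643, 0.630 and 0.681. Junb averaged 6.28 ± 1.43 CPM in KO paclitaxel cords (SD, n = 6), 6.79 ± 1.32 in KO vehicle cords (n = 6), 8.26 ± 3.01 in WT paclitaxel cords (n = 5) and 6.08 ± 1.70 in WT vehicle cords (n = 6). By sex, Junb averaged 10.1 CPM in WT paclitaxel males (n = 3) and 6.95 CPM in WT vehicle males (n = 3). In females Junb averaged 5.55 CPM (n = 2) and 5.22 CPM (n = 3) in the same order. Its highest WT paclitaxel cord, male replicate 2, had 12.7 CPM, and this cord also held the highest Ier2, at 7.44 CPM.

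Knockout against wild-type gave its largest values in Fos and Fosb, neither of them called. Fos had a lowest, median and highest level of 6.29, 11.98 and 19.4 CPM in 12 KO cords, against 5.79, 10.3 and 15.1 CPM in 11 WT cords. Of the KO cords 9 lay above the WT median and 3 above every WT cord. The log2 fold change of Fos was 0.35 (SE 0.14, unadjusted p = 0.0290). Fosb had 1.48, 2.32 and 2.89 CPM in KO cords, against 1.43, 1.88 and 2.497 CPM in WT cords, with a log2 fold change of 0.23 (SE 0.10, unadjusted p = 0.0249). Both had an edgeR adjusted p of 1.00, 0 of 9 members were called by edgeR, limma voom or DESeq2, and 0.0118% of tested genes were called by edgeR. The other members lay between -0.05 (Junb) and 0.16 (Egr1) on the log2 scale.

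In vehicle cords alone the knockout values were larger. The log2 fold changes were 0.50 for Fos (SE 0.20), 0.37 for Fosb (SE 0.13) and 0.37 for Egr1 (SE 0.17). Of the members 8 of 9 were positive, beside 51.3% of all tested genes, and 3 had an unadjusted p under 0.05, against 5.20% of all tested genes. No member was called there, where 0.00788% of genes were, and the edgeR adjusted p was 0.911 for these 3 genes. In paclitaxel cords the log2 fold changes were 0.20 for Fos (SE 0.21), 0.10 for Fosb (SE 0.14) and -0.06 for Egr1 (SE 0.18), with 0 of 9 members (0 at an unadjusted p under 0.05) and 0.00394% of genes called. The interaction that tests this difference gave -0.30 for Fos, -0.27 for Fosb and -0.43 for Egr1, with edgeR adjusted p of 0.797, 0.719 and 0.630. Limma voom and DESeq2 called no member in either treatment. The comparisons of genotype within a treatment and of treatment within a genotype share cords.

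Fos is given cord by cord because KO and WT cords were ordered differently in single groups. In vehicle males Fos had 18.3, 19.4 and 12.2 CPM in KO cords, against 10.3, 8.40 and 10.9 CPM in WT cords. These 3 cords per group did not overlap in Fos, nor in Fosb, Egr1 and Nr4a1. They overlapped in Junb, Arc, Npas4, Ier2 and Dusp1. How many of all genes separate 3 against 3 cords in this way was not counted, so no weight is put on it. In vehicle females Fos had 11.8, 9.77 and 10.7 CPM in KO cords, against 9.63, 10.6 and 6.73 CPM in WT cords, and the groups overlapped. In paclitaxel males WT cords held the 2 highest levels, with 9.64, 12.1 and 10.6 CPM in KO cords, against 15.1, 14.8 and 10.6 CPM in WT cords. In paclitaxel females it had 15.2, 6.29 and 12.4 CPM in KO cords, against 5.79 and 7.95 CPM in the remaining WT cords. KO and WT cords overlapped under paclitaxel in both sexes. Library numbers 1 to 12 hold the paclitaxel males and vehicle females, and numbers 13 to 24 the vehicle males and paclitaxel females. Knockout against wild-type could be fitted within each set: the log2 fold change of Fos was -0.05 (SE 0.20) in numbers 1 to 12 and 0.75 (SE 0.21) in numbers 13 to 24. The difference of 0.80 (SE 0.29) had an unadjusted p of 0.0147 and an edgeR adjusted p of 0.873. This difference also tests the genotype by sex by treatment interaction, but with the sign turned and on another scale. It was fitted after the levels had been seen, and the interaction and the library numbers cannot be told apart. Dusp1 gave -0.12 (SE 0.10) and 0.33 (SE 0.11) in the same sets, Nr4a1 -0.16 (SE 0.15) and 0.36 (SE 0.16), and Egr1 -0.08 (SE 0.17) and 0.39 (SE 0.18). No member was called in numbers 1 to 12 (0.00788% of genes called), in numbers 13 to 24 (0.00394%) or in their difference (0%). At an unadjusted p under 0.05 these held 0, 4 (Fos, Egr1, Nr4a1 and Dusp1) and 3 (Fos, Nr4a1 and Dusp1) members, and 3.56%, 5.02% and 5.49% of all tested genes. No other tool was run on these 3 comparisons.

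**Figure D2:**
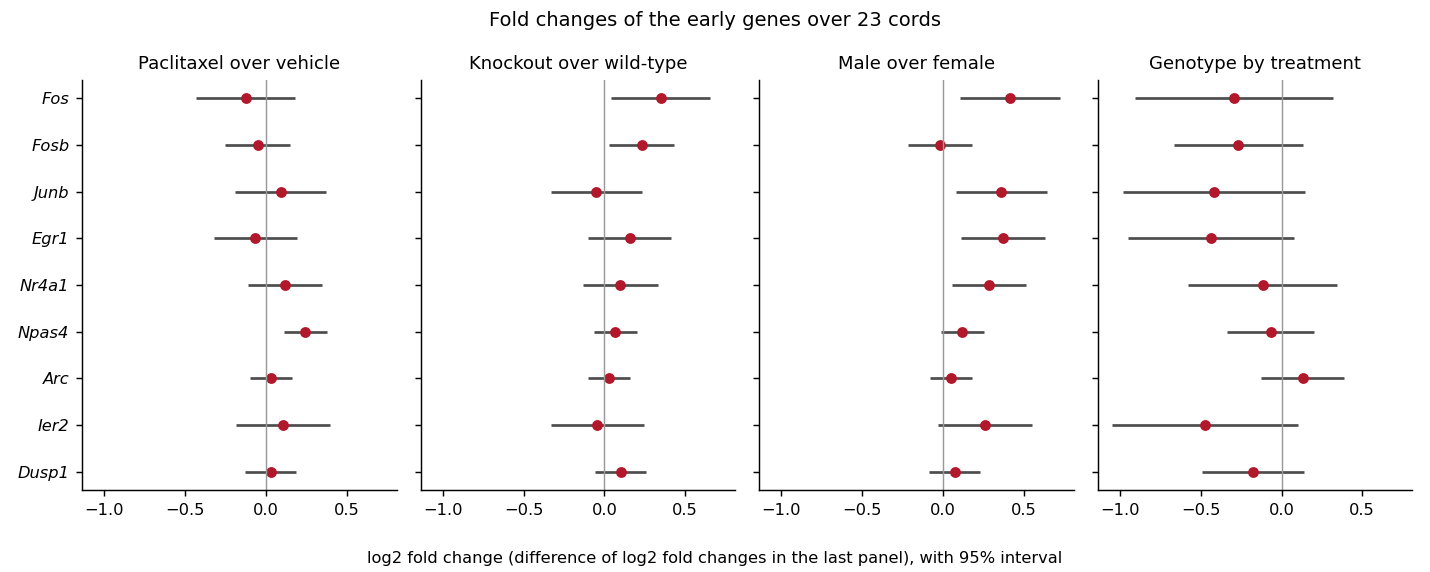
Log2 fold change (x axis) of each early gene with its 95% interval over 23 cords, for paclitaxel over vehicle, knockout over wild-type, male over female, and the genotype by treatment interaction (KO response minus WT response). Npas4 is the member whose paclitaxel interval lies farthest from 0, at 0.11 to 0.38, and no point passed the threshold after adjustment over 25372 genes.

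Most early genes gave a positive value for males over females, none of them called. The log2 fold change of males over females was positive for 8 of 9 genes, beside 51.7% of all tested genes, with a median of 0.26 against 0.00 over all tested genes. Egr1 had a lowest, median and highest level of 15.8, 21.9 and 36.7 CPM in 12 males, against 12.1, 19.4 and 22.2 CPM in 11 females. Of the males, 5 lay above every female and 11 above the female median. The log2 fold change of Egr1 was 0.37 (SE 0.12, edgeR adjusted p = 0.177). It was 0.41 for Fos (SE 0.14, adjusted p = 0.213), 0.36 for Junb (SE 0.13, 0.239) and 0.28 for Nr4a1 (SE 0.11, 0.256), and these 4 genes had an unadjusted p under 0.05, as 13.2% of all tested genes did. None of the 9 was called by edgeR, where 0.918% of genes were, 0 were called by limma voom, and DESeq2 called Egr1 (adjusted p = 0.0488) among 2.30% of genes.

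Sex and treatment are bound to library number within each set, so the sexes could not be compared within a set at equal treatment. Egr1 averaged 23.9 ± 3.82 CPM in paclitaxel males (SD, n = 6) and 17.3 ± 4.09 CPM in paclitaxel females (n = 5), and 23.6 ± 7.28 CPM in vehicle males (n = 6) and 19.1 ± 2.96 CPM in vehicle females (n = 6). Fos averaged 12.1 ± 2.33 CPM in paclitaxel males and 9.52 ± 4.10 CPM in paclitaxel females, and 13.2 ± 4.52 CPM in vehicle males and 9.87 ± 1.73 CPM in vehicle females. The mean of males was the higher under both treatments in both genes. The sex by treatment interaction, taken as the drug's fold change in males minus the one in females, was positive for 9 of 9 genes and for 49.3% of all tested genes. Several members moved together over these cords, so their signs, here and in the other comparisons, are not 9 separate results. The smallest p came from Arc (0.34, SE 0.12, edgeR adjusted p = 0.117) and Dusp1 (0.40, SE 0.15, 0.132). No member was called where 4.96% of genes were, limma voom called 0 and DESeq2 called both of these genes (adjusted p = 0.0311 and 0.0384) among 9.36% of genes. At an unadjusted p under 0.05 there were 2 members and 20.3% of all tested genes. This interaction coincides with library numbers 1 to 12 against 13 to 24, and the 2 cannot be told apart. Beside it, 4 of 12 neuron markers were called higher (9 positive, median 0.21), 3 of 10 oligodendrocyte markers (6 positive), 2 of 11 microglia markers (9 positive), 2 of 15 endothelial and mural markers (15 positive, median 0.36), 2 of 10 skeletal muscle markers (9 positive, median 2.78), and 1 each of 10 astrocyte and 12 ganglion neuron markers (7 and 5 positive); their part in the early gene values was not tested. In the sex by genotype interaction, the knockout effect of males minus that of females, 0 of 9 members (0 at an unadjusted p under 0.05, 0 by limma voom and DESeq2) and 0.00394% of genes were called, with -0.56 for Junb (SE 0.27, adjusted p = 0.402) as the smallest p.

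The early genes of 1 cord tended to be high or low together. WT male paclitaxel replicates 1 and 2 each had 6 of the 9 genes among the 5 highest cords, and KO male vehicle replicate 1 had 5. At the other end KO female paclitaxel replicate 2 had 7 of the 9 genes among the 5 lowest cords, and WT female vehicle replicate 3 and WT female paclitaxel replicates 1 and 2 had 5 each. High and low cords came from both genotypes and both treatments, the 8 highest means over the 9 genes included 7 males, and the mean standardised level of KO male vehicle replicates 1, 2 and 3 was 1.07, 0.41 and -0.31.

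**Figure D3:**
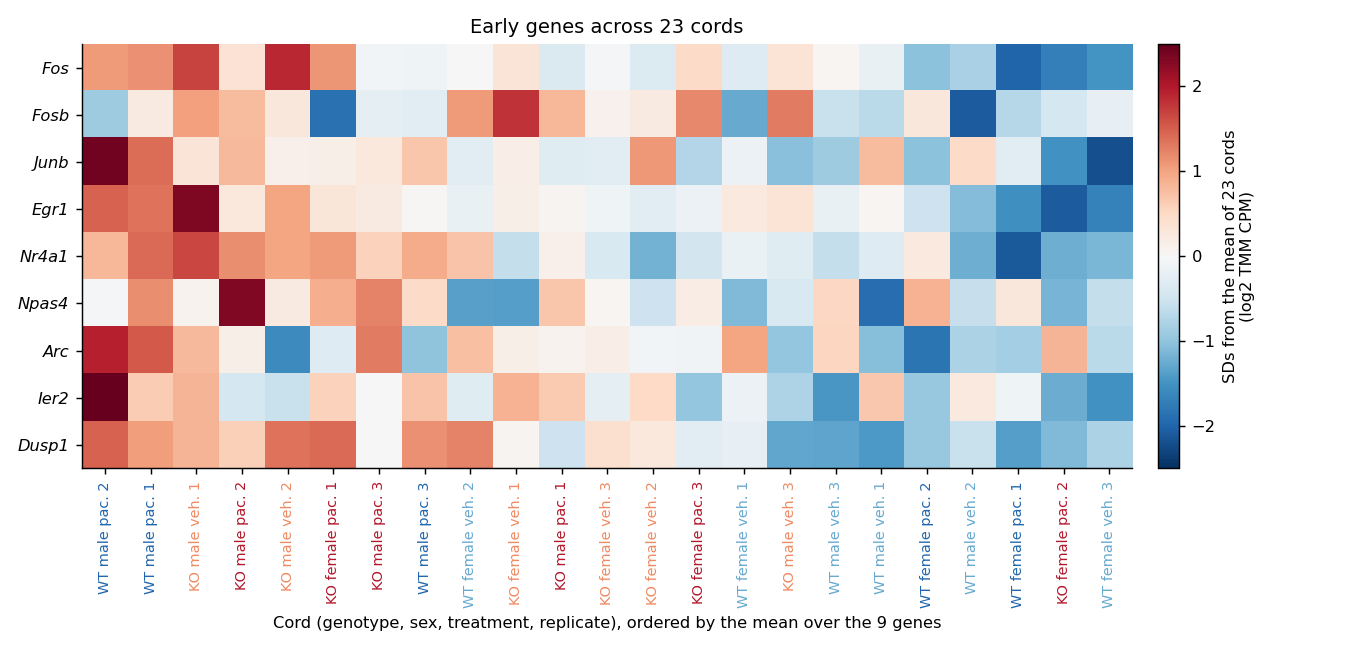
Standardised level (colour, in SDs of log2 CPM around the mean of 23 cords) of the 9 early genes (y axis) in each cord (x axis), ordered by the mean over the 9 genes; pac. is paclitaxel, veh. vehicle, and label colours give the genotype and treatment. The leftmost cords are WT male paclitaxel replicates 2 and 1 and KO male vehicle replicate 1. They lie above the mean in Fos, Junb, Egr1, Nr4a1, Ier2 and Dusp1, and in Arc at 1.94, 1.53 and 0.81. Fosb stands at -0.88, 0.215 and 1.03 there, and Npas4 at -0.05, 1.17 and 0.09. The order is set by the same 9 genes.

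Co-variation was measured on log2 CPM with TMM factors (pseudocount 0.1) over the 36 pairs of genes. Of these, 33 had a positive Pearson r, the median was 0.349, and 12 passed a two-sided permutation test adjusted over the 36 pairs (8 by Spearman's rho). The share that passes among pairs of other genes was not computed, so these counts have no background. Nelfa, the most like Junb of 15860 other genes, had r of 0.903 with it. Fos and Egr1 were the closest pair, with r of 0.909 (rho 0.833, permutation p = 1e-05, adjusted 9e-05, the smallest that the permutations can give), and r was 0.919 without the 2 cords farthest from the median of Fos. Within library numbers 1 to 12 it was 0.945 and within 13 to 24 it was 0.910. Egr1 and Nr4a1 had r of 0.808 (rho 0.786, adjusted p = 9e-05), Fos and Nr4a1 0.788 (rho 0.713, adjusted p = 9e-05), Nr4a1 and Dusp1 0.745 (rho 0.6996, adjusted p = 0.000660) and Fos and Dusp1 0.705 (rho 0.653, adjusted p = 0.000660). These 4 stayed between 0.627 and 0.772 without the 2 cords farthest from the median, between 0.685 and 0.752 within numbers 1 to 12 and between 0.778 and 0.875 within 13 to 24.

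Junb and Ier2 formed another close pair, with r of 0.854 (rho 0.750, adjusted permutation p = 9e-05). It was 0.750 without WT female vehicle replicate 3 and WT male paclitaxel replicate 2, 0.822 within library numbers 1 to 12 and 0.875 within 13 to 24. Junb was also correlated with Egr1 (r = 0.621), Dusp1 (0.592) and Fos (0.517), with adjusted permutation p of 0.00855, 0.0102 and 0.0360. Those 3 values were 0.877, 0.735 and 0.859 within library numbers 1 to 12, but 0.438, 0.414 and 0.395 within 13 to 24, where none passed. The difference between the sets was not tested. Egr1 and Dusp1 (r = 0.623), Egr1 and Ier2 (0.572) and Ier2 and Dusp1 (0.521) were the other pairs that passed, with adjusted permutation p of 0.00504, 0.0205 and 0.0296. Without 2 cords these 6 weaker pairs lay between 0.407 and 0.603, and by rho 2 of them passed, Egr1 with Dusp1 (0.571) and Junb with Dusp1 (0.547). Taking deviations from the 8 group means left 7 pairs, the 6 with r over 0.7 named above among them at 0.730 to 0.895.

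**Figure D4:**
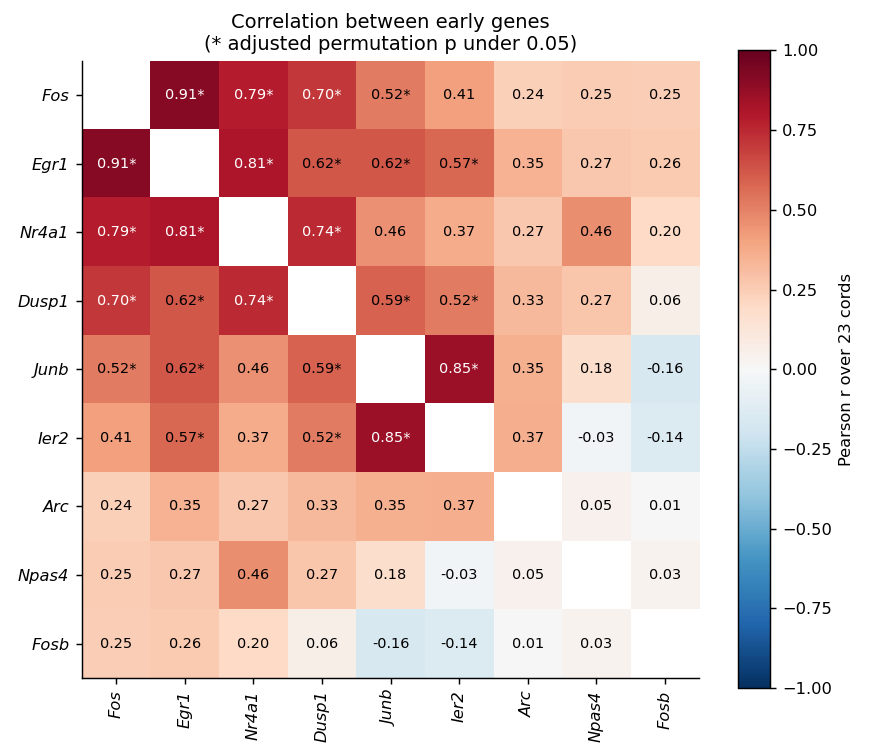
Pearson r over 23 cords between each pair of the 9 early genes (both axes), from log2 CPM with TMM factors; asterisks mark an adjusted permutation p under 0.05. Fos, Egr1, Nr4a1 and Dusp1 form a block of 0.62 to 0.91, Junb and Ier2 reach 0.85, and Fosb, Npas4 and Arc pass in no pair over 23 cords.

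Fosb, Npas4 and Arc were in 0 of the 12 pairs over 23 cords. Within library numbers 1 to 12, where 13 pairs passed, Arc passed with Egr1 (r = 0.754, adjusted permutation p = 0.0245) and Fos (r = 0.676, adjusted p = 0.0479). Within 13 to 24 these values were 0.0328 and 0.0489; the difference between the sets was not tested. Fosb and Fos, members of the same family, had r of 0.249 (adjusted permutation p = 0.350), and Fosb and Junb -0.159 (adjusted p = 0.565). Npas4 came nearest with Nr4a1 (r = 0.463, adjusted p = 0.0738), and Arc with Ier2 (r = 0.366, adjusted p = 0.180), which was 0.0376 without 2 cords. Fosb has the lowest counts and Arc and Npas4 the smallest spread of the 9; their part in the low r was not tested.

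**Figure D5:**
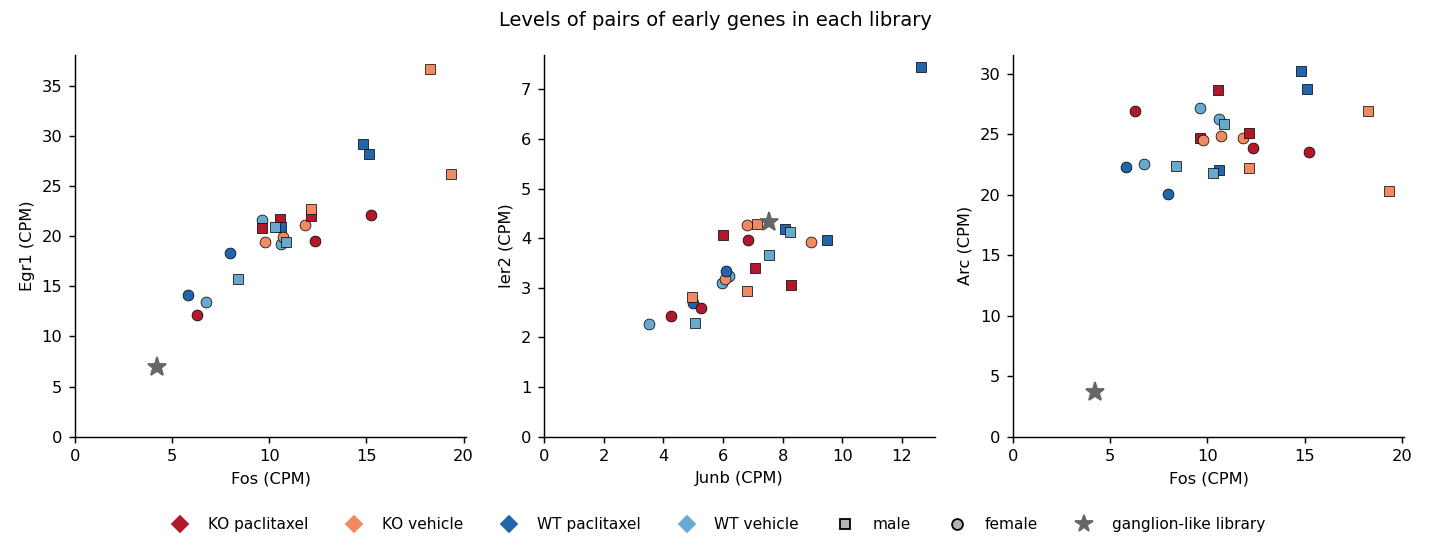
Levels in CPM in each library of Egr1 against Fos, Ier2 against Junb, and Arc against Fos; colours give genotype and treatment, squares are males, circles females, and the star is the ganglion-like library. Egr1 climbs with Fos over cords of all 4 groups (r = 0.91 on the log2 scale), Ier2 with Junb (0.85), and Arc lies at 20.1 to 30.3 CPM over the range of Fos (0.24).

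Other rapid genes moved with most of the members. The mean standardised level of 12 other AP-1, EGR and NR4A factors passed with Junb (r = 0.838), Ier2 (0.750), Egr1 (0.673), Dusp1 (0.607) and Fos (0.603), with adjusted permutation p of 0.000540, 0.000540, 0.00828, 0.0226 and 0.0227 over 162 relations. The rho of Junb and Ier2 passed, at 0.744 and 0.653, while those of Egr1, Dusp1 and Fos did not (adjusted p = 0.103, 0.0716 and 0.221). Within each set of library numbers these 5 values lay between 0.514 and 0.835, and without 2 cords between 0.479 and 0.768. A list of 40 other rapid primary response genes passed with 6 members, from Egr1 at 0.648 to Dusp1 at 0.805, and all 6 passed by rho (0.595 to 0.750). They lay between 0.548 and 0.869 within the sets and between 0.603 and 0.774 without 2 cords. Lists of 18 neuronal late response genes, 12 heat shock genes, 12 glucocorticoid induced genes and 29 upstream kinases and factors passed with 0 members, with highest r of 0.382, 0.478, 0.477 and 0.371. Of the AP-1, EGR and NR4A list 0 of 12 genes were called for paclitaxel or for knockout over all animals (7 positive for paclitaxel and 4 for knockout), and of the rapid list 0 of 40 (18 and 22 positive). Their smallest p came from Nr4a3 (log2 fold change -0.16, SE 0.08) and Btg1 (0.12, SE 0.04) for paclitaxel, with edgeR adjusted p of 0.524 and 0.291, and from Nr4a3 (0.13, SE 0.08) and Plk3 (0.10, SE 0.04) for knockout, both with adjusted p of 1.00. In the knockout cords Klf9, a glucocorticoid induced factor, was the 1 gene of these pathway lists called for paclitaxel against vehicle, at a log2 fold change of -0.25 (SE 0.04; adjusted p = 0.0129 by edgeR). For males over females 37 of the 40 rapid genes (median 0.12) and 11 of the 12 factors (median 0.19) were positive. Of all tested genes 51.7% were positive, and 0 were called in either list. Both lists moved with most of the members over the cords, so these signs are not separate results. In the sex by treatment interaction Btg1, Gadd45b and Rhob of the rapid list were called, with log2 values of 0.30, 0.39 and 0.35, which is 3 of 40 beside 4.96% of all genes. Of the 29 upstream genes Creb1, which encodes a factor that binds the cAMP response element, and Rps6ka3, a kinase gene, were called at -0.35 and -0.25, and the kinase genes Map2k1 and Camk2b at 0.23 each. For males over females Penk of the late list, an opioid precursor gene, and Crtc2 of the upstream list were called, at 0.41 and 0.14 (edgeR adjusted p = 0.00158 and 0.0168).

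Markers of cells and tissues moved with some members. Arc went with the neuron list (12 markers, r = 0.620, rho 0.579, adjusted permutation p = 0.0204), the astrocyte list (10 markers, r = 0.640, rho 0.640, adjusted p = 0.0115) and, inversely, with the TMM factor of the library (r = -0.702, rho -0.681, adjusted p = 0.00602). Within library numbers 1 to 12 these were 0.446, 0.396 and -0.684, and within 13 to 24 they were 0.589, 0.677 and -0.670. Without 2 cords they were 0.671, 0.621 and -0.596. The rho with the neuron list did not pass (adjusted permutation p = 0.0632). The levels of Arc used here had been divided by the TMM factor itself, so the relation of Arc with that factor is partly built in. The dorsal root ganglion neuron list, which holds genes that motor neurons also transcribe, such as Calca and Prph, went with Dusp1 (r = 0.748, rho 0.767, adjusted p = 0.00108), Fos (r = 0.660, rho 0.513, adjusted p = 0.00986) and Nr4a1 (r = 0.568, rho 0.481, adjusted p = 0.0422), and by rho Dusp1 alone passed. Within numbers 1 to 12 these 3 values were 0.522, 0.527 and 0.295, within 13 to 24 they were 0.847, 0.718 and 0.688, and without 2 cords 0.684, 0.522 and 0.503. Each gene weighed the same in the mean standardised level of this list, also Scn10a, which was at most 0.728 CPM in any cord. The summed ganglion list, in which abundant genes weigh more, is another measure. It lay at 466.5 to 695 CPM in 11 paclitaxel cords and 474 to 611 CPM in 12 vehicle cords. Oligodendrocyte, microglia, endothelial and mural, meningeal, blood, Schwann cell and skeletal muscle lists and the library total passed with 0 members. The summed blood markers ranged from 151 to 1207 CPM, with a highest r of 0.402. The part of any list in the early gene values was not tested.

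By the highest Pearson r to the mean standardised level of the 9 members, among 15860 other genes with a mean of at least 1 CPM over 23 cords, the most alike genes were Tspyl2 (0.856), Cwc25 (0.820), Gem (0.815), Fbxo46 (0.813), Btg2 (0.812), Phc2 (0.808), Mapre3 (0.806), Mcm7 (0.799), Qsox1 (0.793) and Mia3 (0.792). For single members, Fos was most like Spry4 (0.857), Jmjd6 (0.787) and Nr4a3 (0.783), and Nr4a1 most like Apold1 (0.831), Sik1 (0.820) and Fbxo46 (0.817). Dusp1 was most like Klf2 (0.846), Sik1 (0.812) and Apold1 (0.808), Egr1 like Utp15 (0.814), Fbxo46 (0.781) and Tspyl2 (0.773), and Junb like Nelfa (0.903), Gm13889 (0.868) and Jph3 (0.868). Ier2 was most like Ptms (0.844), Tpm1 (0.827) and Nop53 (0.818), and Arc like Gprc5b (0.884), Cdc42ep2 (0.877) and Tbc1d10b (0.870). Npas4 was most like Gtf2ird1 (0.765), Trim9 (0.757) and Setd4 (0.744), and Fosb like Efcab9 (0.809), Taf1d (0.671) and 4930481B07Rik (0.647). These are descriptions of the same 23 cords and libraries, and the highest of many values.

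In the ganglion-like library the early genes stood in another order. Arc was at 3.66 CPM, against 20.1 to 30.3 CPM in the 23 cords, and Npas4 at 0.728 CPM, against 4.10 to 7.42 CPM. Fos at 4.23 CPM, Egr1 at 6.94 CPM and Fosb at 0.654 CPM also lay below every cord, whose lowest levels were 5.79, 12.1 and 1.43 CPM. Nr4a1, at 29.8 CPM, lay above every cord (7.14 to 16.3 CPM), and per kilobase it was the highest of the 9 genes there, at 8.49 CPM per kb, against 1.20 for Arc. Junb at 7.56 CPM, Ier2 at 4.33 CPM and Dusp1 at 15.4 CPM lay within the range of the cords. With a single such library there is no spread and no test. Taking it into the fit turned the sign of 5 of 45 fold changes of members in 5 comparisons.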

How the data were processed

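The deposited table holds raw counts of reads per gene for 24 libraries, 3 in each of 8 groups, which the authors made on GRCm38 with STAR and featureCounts (version 1.6.2 in the submitters' processing notes), with strand ignored per the file headers. Library totals were 88812295 to 112158154 and all 24 sample columns belong to the series. From the counts, edgeR 4.0.16 in R 4.3.3 (TMM factors 0.981 to 1.02, filterByExpr, robust quasi-likelihood test, 8 group means) was fitted on 23 libraries for 10 contrasts, with Benjamini-Hochberg adjustment over 25372 genes and calls at 0.05. The 95% intervals are from that fit. Levels are CPM of library totals. Correlations used log2(CPM + 0.1) with TMM factors and 100000 permutations. Alternatives were DESeq2 1.42.0, limma 3.58.1 voom, other scaling and filters, all 24 libraries, a replicate block and each library left out. Members and lists were chosen with earlier results of these data known. The text names the 9 members, called genes of other lists or up to 4 with the smallest p, and the most alike genes. The edgeR, limma voom and DESeq2 fits were tried on simulated counts for paclitaxel against vehicle over all animals. The other contrasts and the permutation tests were not tried on simulated data. Replicate libraries differed by more than sampling noise (chi-square per degree of freedom at least 8.98). P-values of fold changes set a difference against the spread between these samples, and those of correlations come from permuting the cords. Promoters are from RefSeq, GRCm38.p6.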

Additional observations from a re-analysis of the deposited data

Results flagged for a closer look

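Egr1 stood at 12.1 CPM in KO female paclitaxel replicate 2, far below the other 5 KO paclitaxel cords by the gap to its nearest neighbour relative to the range of the group. It was 1 of 36 sets of samples that stood apart in this way, and chance gives about 1 in 20. The same cord had 7 of the 9 early genes among the 5 lowest cords. Nr4a1 stood at 29.8 CPM in the ganglion-like library, above all 23 cords, which it was not compared with in any test.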

How the results depend on the processing

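Fold changes of single genes were followed in 5 comparisons (paclitaxel over all animals, in WT and in KO cords, knockout over all animals, and the genotype by treatment interaction). Of 360 such values under other settings, 348 kept their direction and side of the threshold, 6 passed the threshold and 6 changed sign. With all 24 libraries the log2 values that changed sign were Arc -0.086 for paclitaxel over all animals, Fos -0.067 and Fosb -0.098 for paclitaxel in WT cords, Nr4a1 -0.108 for knockout and Npas4 0.18 for the genotype by treatment interaction; with the replicate block it was Fos -0.008 for paclitaxel in WT cords. Of 1035 values of the same 5 comparisons with a library left out, 1016 kept direction and call and 19 changed sign. Their ranges were -0.015 to 0.067 (Dusp1) for paclitaxel over all animals, -0.1 to 0.117 (Fos), -0.084 to 0.03 (Arc) and -0.037 to 0.332 (Nr4a1) in WT cords, -0.052 to 0.133 (Nr4a1) and -0.15 to 0.004 (Dusp1) in KO cords, -0.106 to 0.001 (Junb), -0.007 to 0.054 (Arc) and -0.107 to 0.045 (Ier2) for knockout, and -0.277 to 0.093 (Nr4a1) for the genotype by treatment interaction. DESeq2 called 1 member for paclitaxel, 1 for sex and 2 for the sex by treatment interaction, and over all genes it called 158, 583 and 2376 there, against 5, 233 and 1259 by edgeR. With no filter 1 member was called for paclitaxel, 2 in KO cords, 1 for knockout, 2 in vehicle cords, 4 for sex, 1 and 4 for the genotype and the sex by treatment interactions and 1 for sex by genotype; over all genes that fit called 0.808%, 1.12%, 0.237%, 0.265%, 1.79%, 0.875%, 5.22% and 1.94% in the same order. That fit shrank every gene fully to the shared spread (the quasi-dispersion of Fos was 0.712, against 5.47 with the filter), and with a minimum of 10 counts, chosen after seeing the data, 0 were called in 10 comparisons. Leaving out a library gave 0 to 1 for the sex by treatment interaction: Arc without WT male paclitaxel replicate 3 (adjusted p = 0.0180) or KO male vehicle replicate 1 (0.0282), Dusp1 without KO female paclitaxel replicate 1 (0.0297). All-gene calls there ranged from 248 (without WT female paclitaxel replicate 1) to 2419 (without KO male vehicle replicate 1), and were 0 with all 24 libraries. Of the 36 pairs, 7 passed as group deviations, 13 within library numbers 1 to 12 and 6 within 13 to 24, against 12 over all cords. Replicate numbers are shared between groups, and they were not taken as pairs, since same-number libraries correlated at -0.309 to 0.359 in their deviations and not each pair passed 0.1 (24 of 77 did, against 25 of 154 with different numbers). As a hint from the data, 13 of 23 libraries were closest to their own number of 3. The replicate block called 0 members in 10 comparisons, and 9 genes for paclitaxel. The causes of these differences were not tested.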

Other observations

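Limits: each comparison rests on 3 mice per group, or 2 for WT females given paclitaxel, and 1 time point, so short-lived responses before that day were not measured. The sex by treatment interaction and the library numbers cannot be told apart. Whole cord was sequenced, and dorsal horn neurons were not measured apart from other cells. Recent activity and handling cannot be told apart in these levels, and the part of either in the co-variation was not tested.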
